A study of Mus musculus with 6 samples.

Results

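RNA splicing factors and RNA helicases were taken as the genes whose array annotation symbol begins with Hnrnp or Hnrp, Snrp, Srsf, Sf3a or Sf3b, Prpf, Ddx or Dhx, without the RNA sensor genes Dhx58 and Ddx58. The pattern was chosen by symbol alone and found 71 genes on 78 array features, of 10698 genes named by a single symbol and 16281 features in all. The cells were RAW 264.7, a mouse macrophage line established from a tumour induced by Abelson murine leukaemia virus. RNA of cells cultured for 8 h untreated was compared with RNA of cells given 100 ng/ml lipopolysaccharide (LPS) together with 100 pM of LPS-binding protein for the same time, on 6 arrays that each held both RNAs. In each of 3 numbered sets, treated RNA was labelled with the dye Cy5 on 1 array and with Cy3 on the other. The line is written 264.4 in some labels, and no label says whether the sets were separate cultures, so that p-values measure only the spread between sets, which can be technical.

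Pre-mRNA splicing is carried out by the spliceosome, which assembles from small nuclear ribonucleoproteins (snRNPs) built on a ring of Sm proteins, with the SF3 complexes at the branch point and the PRPF proteins in later complexes. SR proteins (Srsf) mostly promote and heterogeneous nuclear ribonucleoproteins (hnRNPs) often repress the use of exons, and alternative splicing is known to shape inflammatory transcripts in macrophages. DEAD-box (Ddx) and DEAH-box (Dhx) helicases use ATP to remodel RNA and RNA-protein complexes, in splicing but also in ribosome assembly, translation and mRNA decay.

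All values are log2 ratios of treated over untreated, so that 1 is a doubling and a value below 0 is lower in treated cells. The direction is a likely one, taken as Cy5 over Cy3 because the labels speak of a control in Cy3 and a test in Cy5, and all signs would turn under the opposite reading. A value of exactly 0 was treated as not measured, which concerned 46 of 468 member values (9.83%, against 11.5% of all values). Both arrays of a set were averaged, and features with at least 2 set means were tested against 0 with limma, with an adjusted p under 0.05 as the threshold. Of the 78 member features, 72 were tested, on 67 genes. Hnrnpc, Hnrnpk, 1 of 3 Ddx3x features and 1 of 3 Srsf2 features were listed at 0 on all 6 arrays, while Hnrnpab (0.27) and Snrpf (-0.0041) were measured on 1 array each. The array files give ratios and no levels, so macrophage markers could not be checked, and in bulk RNA fewer cells of a type and less RNA per cell cannot be told apart. The treatment check genes were far higher in treated cells: Ifit2, an interferon-induced gene, had 4.69 and 4.61 on 2 features, and Il6, a cytokine gene, had 3.26 ± 0.62 (SD, n = 3 sets). Under the opposite reading of the direction, Ifit2 and Il6 would be far lower in cells given LPS.

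Against that response, changes in transcripts of the splicing machinery and of RNA helicases were small in size. Helicase features were called about as often as all features (35.7%, against 32.7%), and those of the splicing families less often (18.2%). Of 72 member features, 18 passed the threshold (25.0%), against 32.7% of the 14343 features tested on the array. In treated cells 8 were higher (11.1%, against 17.1% of all features) and 10 were lower (13.9%, against 15.6%). The helicase gene Ddx24 had the largest rise, 0.85 ± 0.12 (SD, n = 3 sets), or 1.81-fold, and the hnRNP gene Hnrnpr the largest fall, -0.58 ± 0.08, or 1.49-fold lower. Ddx24 was the 1 member past 1.5-fold in either direction (1.39% of the members, against 8.71% of all features). In limma's test 0 of the 72 members were called and changed beyond 2-fold, against 512 of the 14343 features tested, itself a small share. At an unadjusted p under 0.05 in the same test, 8 of the 72 members were higher and 14 lower. Over all 14343 features 3084 were higher and 2960 lower at that threshold. The median change of the members was -0.026 and the median size of change 0.0993, beside -0.0058 and 0.118 for all features. The median SD between sets was 0.0695 for members and 0.0885 for all features.

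The calls were spread over splicing factors and helicases, with 32.7% of all features called for comparison. Among the 44 tested features of the hnRNP, Snrp, Srsf, Sf3 and Prpf families, 2 rose and 6 fell (18.2%), with a median size of change of 0.0704. Among the 28 of the Ddx and Dhx families, 6 rose and 4 fell (35.7%), with a median size of 0.134. The difference between these groups was not tested, since family members are not replicates of the treatment. The count rested most on set 3: without it 2 members were called higher and 4 lower, as 22.0% of all features were called. Those 6 were Ddx24, Dhx40, Prpf19, Srsf10, Sf3a1 and Hnrnpr. Without set 2, 5 were called higher and 9 lower of 65 tested, as 37.2% of all features were called.

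**Figure D1:**
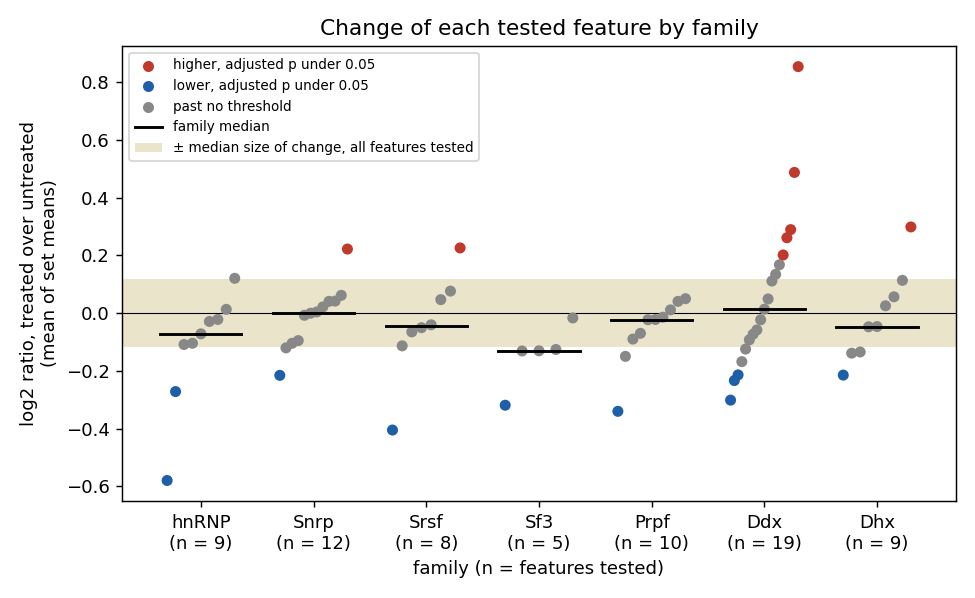
Log2 ratio of treated over untreated (vertical axis, mean of set means) for each of the 72 tested features, by family, with the family median as a bar and features past the threshold in colour. The band spans the median size of change over all features tested (0.118), and most members lie within it or close to it, with Ddx24 (0.85) and Hnrnpr (-0.58) farthest out.

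Of the 18 called features, 5 were called under every one of the 13 alternative settings listed in the closing section: Ddx24 and Dhx40, which were higher, and Prpf19, Srsf10 and Hnrnpr, which were lower. Their promoters are shown because these 5 genes carry the changes that did not depend on a setting. The sequences are 150 bases that end just before the most upstream RefSeq start site (assembly GRCm38.p6, written 5′ to 3′ on the gene's strand). Capitals mark matches to CACGTG, the palindromic core bound by MYC-type factors, or to CCAAT, which is written ATTGG where it lies on the other strand. Dhx40 lies at chr11:86807661-86807810 (minus strand), Ddx24 at chr12:103425848-103425997 (minus), Prpf19 at chr19:10895081-10895230 (plus), Srsf10 at chr4:135855921-135856070 (plus) and Hnrnpr at chr4:136310792-136310941 (plus).
Dhx40: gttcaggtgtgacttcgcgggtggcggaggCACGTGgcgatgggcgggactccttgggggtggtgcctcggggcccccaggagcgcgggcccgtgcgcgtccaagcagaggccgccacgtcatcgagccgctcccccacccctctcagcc
Ddx24: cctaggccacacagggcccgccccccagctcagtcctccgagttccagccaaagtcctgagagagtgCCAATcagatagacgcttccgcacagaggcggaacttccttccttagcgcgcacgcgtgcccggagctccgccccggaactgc
Prpf19: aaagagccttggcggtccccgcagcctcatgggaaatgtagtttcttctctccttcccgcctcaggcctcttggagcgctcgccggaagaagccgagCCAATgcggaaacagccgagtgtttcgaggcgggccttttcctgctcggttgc
Srsf10: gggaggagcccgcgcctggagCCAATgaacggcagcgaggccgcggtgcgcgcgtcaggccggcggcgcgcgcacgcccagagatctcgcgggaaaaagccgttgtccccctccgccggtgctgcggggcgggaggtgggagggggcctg
Hnrnpr: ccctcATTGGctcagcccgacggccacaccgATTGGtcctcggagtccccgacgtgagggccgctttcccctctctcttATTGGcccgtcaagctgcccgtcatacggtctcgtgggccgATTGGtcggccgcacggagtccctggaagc

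The promoters of these genes differ in the marked motifs. The Dhx40 stretch holds 1 CACGTG and 0 CCAAT, those of Ddx24, Prpf19 and Srsf10 hold 1 CCAAT each, and that of Hnrnpr holds 4, all on the other strand. RefSeq promoters, from 250 bases before to 50 after a start, were found for 67 of the 71 genes (86 promoters). CACGTG was present in 11 of these 86 (12.8%), against 7.15% of all 32851 promoters, and CCAAT, on either strand, in 41 (47.7%, against 37.4%). By gene, CACGTG was in the promoters of 9 of 67 members (13.4%, against 8.09% of all genes). These included 2 of 7 members called higher (Ddx5 and Dhx40) and 0 of 9 called lower, groups too small to compare. It was also in 14.5% of the promoters of members not called. The core of interferon response elements (GAAA, any 2 bases, GAAA) was found on either strand in 1 of the 86 (1.16%, Prpf40b) and in 3.44% of all promoters. No motif contains another, CCAAT was added to the search after values were seen, and a match is a description of the sequence only. Myc, which encodes a factor that binds CACGTG, had 3.66 ± 0.46 (SD, n = 3 sets), and no relation to the members was tested.

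The hnRNP genes Hnrnpr and Hnrnph1 were lower in treated cells and 0 of the family's 9 tested features were higher, with 0 higher and 2 lower at an unadjusted p under 0.05 in limma's test. The share called was 22.2%, against 32.7% of all features. Hnrnpr, which encodes an RNA-binding protein closely related to Syncrip, had values of -0.59, -0.43 and -0.59 on the Cy5 arrays (those that carried treated RNA in Cy5) and -0.55, -0.57 and -0.74 on the Cy3 arrays, for sets 1 to 3 in that order. All 6 arrays were below 0 and the orientations overlapped. Its mean of -0.58 ± 0.08 (SD, n = 3 sets) had an adjusted p of 0.000487 (limma). Hnrnph1, a regulator that binds runs of G, had -0.32, -0.26 and -0.40 in Cy5 and -0.28, -0.16 and -0.21 in Cy3. Every array was again below 0, with a mean of -0.27 ± 0.06 (adjusted p = 0.00806, limma). The call of Hnrnph1 was lost without set 3.

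The most studied hnRNPs passed no threshold. Hnrnpa1, a classic repressor of exon use, was below 0 on all 6 arrays, from -0.18 to -0.043, with a mean of -0.11 ± 0.02 (adjusted p = 0.135, limma). Hnrnpl had -0.10 and Hnrnpa2b1, measured in sets 2 and 3 alone, -0.071. Hnrnpu, a nuclear scaffold protein, had 0.013, with 3 arrays above and 3 below 0. The 7 hnRNP features that were not called ran from -0.11 to 0.12, and the median over all 9 was -0.071, with an SD of 0.025 between the medians of the sets.

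Genes of the snRNPs had 2 called features of 12 tested (16.7%, against 32.7% of all features). Of these 1 rose and 1 fell, and the family median was 0.0022, with an SD of 0.027 between set medians. Snrpb2, the U2 snRNP protein B'', had 0.18, 0.22 and 0.17 in Cy5 and 0.18, 0.36 and 0.22 in Cy3. Every array was above 0, with 1 Cy3 array standing above the other 5, and the mean was 0.22 ± 0.06 (adjusted p = 0.0177, limma). Snrpd1, the Sm ring protein D1, had -0.15, -0.31 and -0.21 in Cy5 and -0.24, -0.19 and -0.19 in Cy3. Each array was below 0 and the mean was -0.22 ± 0.03 (adjusted p = 0.0162, limma). Both calls were lost without set 3 and in each dye orientation taken alone.

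By particle, the Sm core had 5 tested features with a median of -0.10, of which Snrpd1 fell and 0 rose (0 higher and 2 lower at an unadjusted p under 0.05, limma). Snrpd3 was below 0 on all 6 arrays (mean -0.12, adjusted p = 0.103), Snrpg had -0.10, Snrpe -0.095 and Snrpd2 0.042. The U1 proteins Snrpa and Snrpc had 0.062 and 1.0e-05. Snrpa1, the U2 protein A', had -0.0071 and 0.022 on its 2 features. Snrpn, the form of the Sm protein best known from brain, had 0.041. Snrp1c-ps2, a pseudogene that the symbol pattern takes in, had 0.0044. Snrpb and Ddx17 were not analysed here.

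Among SR proteins Srsf10 fell. Srsf10, an SR protein that acts as a repressor of splicing when dephosphorylated, had -0.40, -0.39 and -0.39 in Cy5 and -0.56, -0.28 and -0.41 in Cy3. Each of the 6 arrays was below 0, the 3 Cy5 arrays lay within the range of the Cy3 arrays, and the mean was -0.40 ± 0.07 (SD, n = 3 sets; adjusted p = 0.0019, limma). Srsf1, the prototype SR protein, was measured on 5 arrays, with -0.083 and 0.31 in Cy5 for sets 2 and 3 and -0.79, 0.49 and 0.19 in Cy3 for sets 1 to 3. The signs were mixed: 3 arrays were above and 2 below 0. The fit used sets 2 and 3 only, since set 1 lacked a Cy5 value, and gave 0.23 ± 0.03 (n = 2 sets, adjusted p = 0.0482, limma). With all 5 arrays in a fit without set means, Srsf1 had 0.038 and an adjusted p of 0.923, and the call was also lost with scaled arrays (adjusted p = 0.0683, limma) and quantile normalization (adjusted p = 0.0641, limma). It was lost or could not be tested in 11 of the 13 alternatives.

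The other SR protein genes lay close to 0. Srsf2 had -0.065 and -0.050 on its 2 tested features, Srsf3 -0.11, Srsf5 0.047, Srsf9 -0.040 and Srsf6 0.077. Srsf3 had 1 of 6 arrays above 0 (0.083) and an adjusted p of 0.198. The median of the 8 tested features was -0.045, with an SD of 0.067 between set medians, the widest of the 7 families.

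All 5 features of the SF3 complexes were below 0, and 1 passed (20%, against 32.7% of all features). Sf3a1, a subunit of the SF3A complex of the U2 snRNP, had -0.38, -0.54 and -0.45 in Cy5 and -0.10, -0.26 and -0.19 in Cy3. All 6 arrays were below 0, and every Cy5 array lay below every Cy3 array. The mean was -0.32 ± 0.08 (adjusted p = 0.0054, limma), while the Cy3 arrays alone gave -0.18 and an adjusted p of 0.124. Sf3b3 had -0.13, Sf3a3 -0.13, Sf3b1, the branch point subunit mutated in blood cancers, -0.13, and Sf3b6 -0.016, and none of these passed. In limma's test 0 of the family were higher and 1 lower at an unadjusted p under 0.05. The family median of -0.13 was the lowest of the 7, with an SD of 0.045 between set medians.

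Of the 10 tested Prpf features, Prpf19 fell and 0 rose (0 higher and 2 lower at an unadjusted p under 0.05, limma). The share called was 10%, against 32.7% of all features. Prpf19, the ubiquitin ligase at the core of a complex that activates the spliceosome, had -0.18, -0.27 and -0.29 in Cy5 and -0.38, -0.47 and -0.45 in Cy3. No array was above 0, with the Cy3 arrays all lower than the Cy5 arrays, and the mean was -0.34 ± 0.05 (adjusted p = 0.00312, limma). Prpf8, the large protein at the catalytic centre, was also below 0 on all 6 arrays, from -0.26 to -0.035, with a mean of -0.15 just outside the threshold (adjusted p = 0.0574). It passed in 4 of the alternatives, with adjusted p-values of 0.0182 to 0.0474 there. The remaining Prpf features ran from -0.089 (Prpf18) to 0.050 (Prpf3), and Prpf40b had -0.023 and -0.014 on its 2 features.

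**Figure D2:**
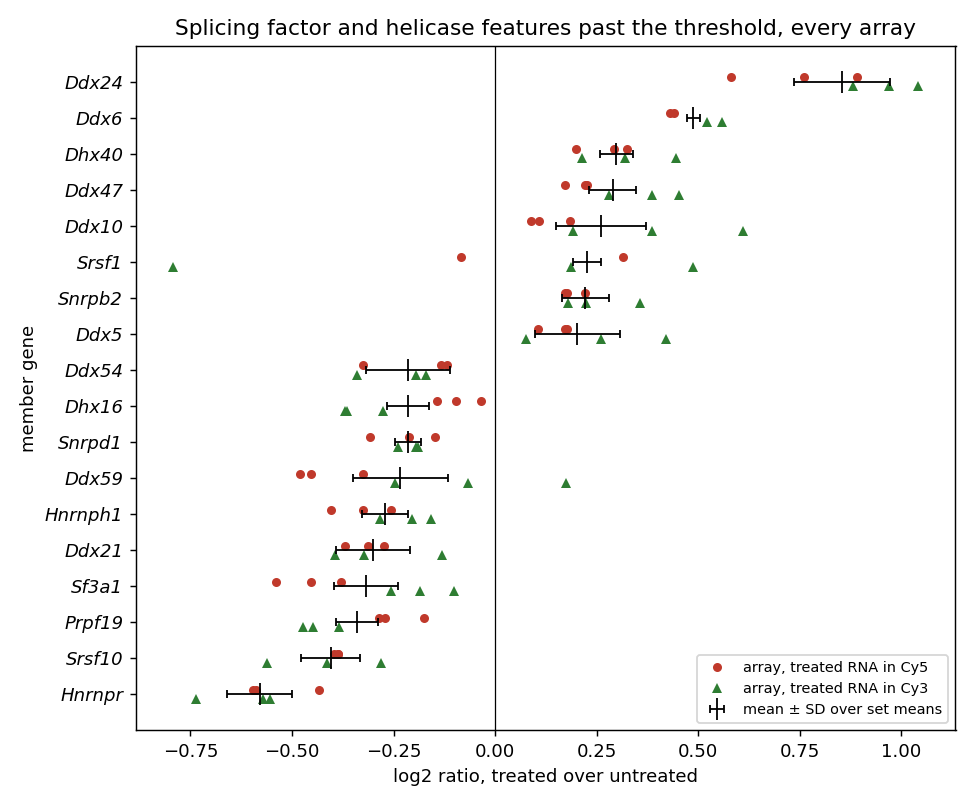
Log2 ratio of treated over untreated (horizontal axis) on every array for the 18 called features, with circles for treated RNA in Cy5, triangles for treated RNA in Cy3, and the mean ± SD over set means as a bar. All arrays share a sign for 16 of the 18, Ddx24 stands apart at the top, and Srsf1 and Ddx59 have arrays on both sides of 0.

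Helicases of ribosome biogenesis held the largest rise and changed in both directions. Of 10 tested, 3 rose (Ddx24, Ddx47 and Ddx10) and 2 fell (Ddx21 and Ddx54), with a median of 0.020. Those are 30% and 20%, against 17.1% and 15.6% of all features, on a small number of features. Ddx24, a nucleolar DEAD-box helicase, had 0.89, 0.76 and 0.58 in Cy5 and 1.04, 0.97 and 0.88 in Cy3. The 6 arrays were all above 0 and the orientations overlapped slightly, with a mean of 0.85 ± 0.12 (adjusted p = 0.000177, limma). Ddx47, which acts in early processing of ribosomal RNA, had 0.17, 0.23 and 0.22 in Cy5 and 0.28, 0.45 and 0.39 in Cy3. All arrays were above 0 and every Cy3 array was above every Cy5 array, with a mean of 0.29 ± 0.06 (adjusted p = 0.0063, limma). The call of Ddx47 was lost by a small margin without set 3 (adjusted p = 0.0501). Ddx10, also a nucleolar helicase, ranged from 0.089 to 0.61 over the 6 arrays, with a mean of 0.26 ± 0.11 (adjusted p = 0.0179, limma). Its highest array was in set 2, and its call was lost without set 3 and in each orientation alone.

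The helicases that fell in the same group were Ddx21 and Ddx54. Ddx21, which takes part in transcription and processing of ribosomal RNA, had -0.37, -0.27 and -0.31 in Cy5 and -0.39, -0.13 and -0.32 in Cy3. All 6 arrays were below 0, with the set 2 Cy3 array nearest to it, and the mean was -0.30 ± 0.09 (adjusted p = 0.00799, limma). Ddx54 ranged from -0.34 to -0.12 and was lowest on both arrays of set 2, with a mean of -0.21 ± 0.10 (adjusted p = 0.034, limma). Its call was lost without set 2 or without set 3. Ddx51 was next to the threshold, with -0.17 and an adjusted p of 0.0559. Ddx18, Ddx50, Ddx56 and Dhx33 had 0.049, -0.073, 0.014 and 0.026.

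Among helicases of translation, export and decay, Ddx6 was the 1 of 9 tested features called (11.1%, against 32.7% of all features). Ddx6, which represses translation and promotes mRNA decay in P-bodies, had 0.43 and 0.44 in Cy5 and 0.52 and 0.56 in Cy3, in sets 2 and 3. Both arrays of set 1 were listed at 0, so the fit used 2 sets, with 0.49 ± 0.02 (n = 2 sets, 1.40-fold; adjusted p = 0.00347, limma). All 4 measured arrays were above 0. With the zeros of set 1 kept as values Ddx6 had 0.33 and an adjusted p of 0.0871. Ddx3x, a helicase of translation initiation, had 0.13 and 0.17 on its 2 tested features, and neither passed. Ddx19b, which releases mRNA at the nuclear pore, was above 0 on all 6 arrays, with a mean of 0.11 (adjusted p = 0.126). Dhx36, which unwinds G-quadruplexes, had 0.057, Dhx34, a factor of nonsense-mediated decay, had -0.046 and -0.14, and the germ cell helicases Ddx4 and Ddx25 had -0.092 and -0.023 on 2 sets each.

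Of 3 helicases of the spliceosome 1 fell and 0 rose (0 higher and 1 lower at an unadjusted p under 0.05, limma). The share called was 33.3%, against 32.7% of all features. Dhx16, which remodels the spliceosome before the first splicing step, had -0.14, -0.097 and -0.034 in Cy5 and -0.37, -0.37 and -0.28 in Cy3. Every array was below 0 and the Cy3 arrays were all lower than the Cy5 arrays, with a mean of -0.21 ± 0.05 (adjusted p = 0.0191, limma). The call of Dhx16 was lost without set 1, without set 3 and in the Cy5 arrays alone. Dhx15, which takes spliceosomes apart, had 0.11, and Ddx39b, a helicase of splicing and mRNA export, -0.058.

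In the group of helicases of transcription and other roles, 2 of 5 rose and 1 fell (40% and 20%, against 17.1% and 15.6% of all features). Dhx40 had 0.29, 0.20 and 0.33 in Cy5 and 0.21, 0.45 and 0.32 in Cy3. All 6 arrays were above 0, the orientations overlapped, and the mean was 0.30 ± 0.04 (adjusted p = 0.0047, limma). Ddx5, a coactivator of transcription that also acts in splicing, ranged from 0.076 to 0.42, with a mean of 0.20 ± 0.10 (adjusted p = 0.0418, limma). Its call was lost in 5 of the 13 alternatives, among them without set 2 and without set 3. Ddx59 had 5 arrays below 0 and the set 2 Cy3 array above (0.17), with a mean of -0.23 ± 0.12 (adjusted p = 0.0292, limma), and its call was lost without set 1, without set 3 and in the Cy3 arrays alone. Dhx9, also known as RNA helicase A, had -0.13, and Ddx20, a member of the SMN complex also known as Gemin3, -0.12. Dhx30, of mitochondrial ribosomes, had -0.047.

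The dye orientations bear on changes of this size. Of 72 members, 25 had the same sign on every measured array (34.7%, against 32.6% of all features), and 10 had all arrays of one orientation above 0 and all of the other below (13.9%, against 12.2%). The splicing families, with 44 of the 72 members, held 8 of these 10 (18.2% of their features). The helicase families, with 28, held 2 (7.14%). Among these 10 the widest gaps were in Snrp1c-ps2, with 0.30 on the Cy5 arrays and -0.30 on the Cy3 arrays, and in Prpf4b, a kinase of the spliceosome, with -0.32 and 0.27. Their averages over both orientations were 0.0044 and -0.022. A dye term passed for 1 of the 72 members, Dhx34 (adjusted p = 0.0499, limma), and for 646 of the 14343 features tested.

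**Figure D3:**
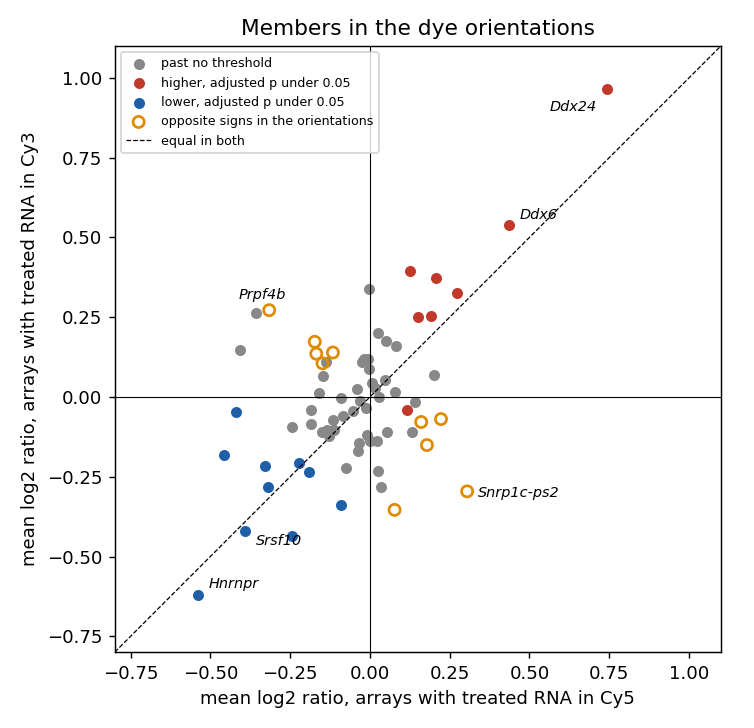
Mean log2 ratio of treated over untreated on the Cy5 arrays (horizontal axis) and on the Cy3 arrays (vertical axis), named for the dye of the treated RNA, for the 72 tested features, with equality as a dashed line. Ddx24 (0.74 and 0.96) and Hnrnpr (-0.54 and -0.62) lie far from the centre near the line, and the 10 open circles are features with opposite signs in the orientations.

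Other genes of RNA splicing and RNA helicases, were listed by role. On 128 tested features of 105 genes, 11 were higher and 22 lower (8.59% and 17.2%, against 17.1% and 15.6% of all features). The share called was 25.8%, against 32.7% of all features, and the median was -0.042. Spliceosome proteins outside the symbol pattern had 3 higher and 8 lower of 46 (6.52% and 17.4%), with 23.9% called. The falls were led by Ppih, a cyclophilin of the tri-snRNP (-0.56 ± 0.08, with -0.29 and -0.017 on its other features), and Lsm2, of the ring that binds U6 RNA (-0.40 ± 0.02). Snrnp35, of the minor spliceosome, and Rbm25 rose by 0.26 and 0.25. Splicing regulators had 5 higher and 8 lower of 41 (12.2% and 19.5%), and the share called, 31.7%, was close to that of all features. Among them Cirbp, the cold-inducible RNA-binding protein, had -0.50 ± 0.08 and Syncrip had -0.45 ± 0.02 and -0.28 on 2 features. Rbfox1, a splicing regulator best known from neurons and muscle, had 1.17 ± 0.06, or 2.25-fold, with all 6 arrays between 1.00 and 1.26, and Rbm4 had 0.44 ± 0.08. Tia1 and Son each had features called in opposite directions: 0.27 and -0.19 for Tia1, 0.16 and -0.33 for Son. The lower Tia1 feature had opposite signs by dye, with -0.54 on the Cy5 arrays and 0.16 on the Cy3 arrays (dye term, adjusted p = 0.030, limma).

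The smaller lists differed in the share of features called, beside 32.7% of all features. It was 7.69% for kinases of SR proteins and 25% each for snRNP assembly and for the exon junction list. For helicases outside the symbol pattern it was 50% (3 of 6). Of 13 features of the kinases that phosphorylate SR proteins, 1 fell (Srpk2, -0.21, with -0.019 on its other feature) and 0 rose (0 higher and 2 lower at an unadjusted p under 0.05, limma). The SMN complex and snRNP assembly had 1 higher of 16 (Wdr77, 0.21) and 3 lower (Gemin2, -0.22, and both features of Gemin6, -0.20 and -0.19). Of 8 features of the exon junction, export and nonsense-mediated decay, Upf1 (-0.19) and Nxt1 (-0.17) fell and 0 rose (0 higher and 3 lower at an unadjusted p under 0.05, limma). Helicases outside the symbol pattern differed more in size: Mov10, an antiviral helicase, had 1.47 ± 0.07 (SD, n = 3 sets), and Eif4a1, of translation initiation, 0.18. The RNA sensor helicases Dhx58 and Ifih1 had 3.06 ± 0.13 and 3.90 ± 0.16, above every one of the 72 members on every array, where the highest member value was 1.04 (Ddx24).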

How the data were processed

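The deposited table held log2 ratios, 1 for each feature on each array, and its largest value is log2 of 100, which gave the log base. How the authors scanned, corrected and normalized the arrays was not given in the sources used here. Channel intensities were not used here, so no filter on dim features could be applied, and the number of arrays limits the precision. Array medians without zeros lay between -0.021 and 0.0087 after the sign was turned on Cy3 arrays. Arrays of opposite orientation correlated at -0.80 to -0.43 over features as deposited.

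Set means needed both arrays, so that dye cancels. Features with at least 2 set means (14343) were tested in limma 3.58.1 (R 4.3.3; lmFit, then eBayes), and p-values were adjusted over all of them by Benjamini-Hochberg. Every adjusted p comes from limma, SDs are over set means, and the procedure was tested on simulated data. There it called 22% of changes of 0.25 with the right sign, 96% of changes of 0.5 and 100% of changes of 1. In it 50 features were changed at each size and 117 were called, far fewer than on the array. With so few calls the adjusted threshold was stricter in the simulation than on the array, so these shares do not carry over to the members. The 54 members that were not called had means from -0.17 to 0.17. Such a member may still have changed by a small amount. Symbols came from the platform annotation (13738 features with 1 symbol, 52 with several, 2491 with none), and all 71 member genes matched RefSeq by gene identifier.

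The members, role lists and tests were chosen with earlier results of these data known. Named genes were, per family, up to 4 rises and 4 falls past the threshold with 1 sign on every measured array, up to 2 and 2 per outside list, a fixed list of common members, and genes with features called in opposite directions; other members, and called members with mixed signs, were added after their values were seen. The alternatives were zeros kept, single arrays and a dye term (set block absent or present), each set left out, median centring, scaling, quantile normalization, each orientation alone, features measured on all 6 arrays, and probes averaged per gene.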

Additional observations from a re-analysis of the deposited data

Results flagged for a closer look

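On 2 members 1 array stood far from the others of the same gene, where 43 features were checked and chance alone flags about 1 in 20. For Snrpb2 the set 2 Cy3 array had 0.36, and its gap to the next array was 0.72 of the range of all 6. For Hnrnpa2b1 the set 2 Cy5 array had -0.12, with a gap of 0.83 of the range of its 4 measured arrays.

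For 10 members every array of one dye orientation was above 0 and every array of the other below. The mean of the Cy5 arrays minus that of the Cy3 arrays was 0.60 for Snrp1c-ps2, 0.43 for Dhx34 (1 of its 2 features), 0.33 for Ddx56, 0.29 for Srsf6 and 0.24 for Prpf6. It was -0.59 for Prpf4b, -0.35 for Snrpc, -0.30 for Sf3b6, -0.26 for Prpf31 and -0.25 for Hnrnpm. In limma's dye term Dhx34 passed (adjusted p = 0.0499), and the others had adjusted p-values from 0.0507 (Prpf4b) to 0.213 (Prpf6). None of the 10 passed in the comparison of treated with untreated cells on set means. A feature of Dhx34 was called with a dye term on single arrays, with the set block absent or present, and in Cy3 alone. Prpf4b, Snrp1c-ps2 and Srsf6 were called in Cy5 alone.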

How the results depend on the processing

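Of 18 calls, 18 were kept with median centring, and 17 each with scaling, quantile normalization and separate arrays without a set block. With features measured on all arrays and with gene averages 16 each were kept, and 15 with zeros kept. In Cy5 alone 11 were kept and in Cy3 alone 8, and 16, 14 and 6 without sets 1, 2 and 3. Srsf1 and Ddx6 could not be tested without set 2, without set 3, with features measured on all arrays or with gene averages. They count there as not kept. Leaving out 1 set gave 2 to 8 members called higher and 4 to 9 lower, as 22.0% to 37.2% of all features were called. Zeros kept gave 5 higher (28.5% of all features called), and the Cy3 arrays alone 4 higher and 5 lower (22.0%). Family medians moved by more than their spread between sets for hnRNP (-0.071), to -0.038 with zeros kept and -0.10 in Cy3 alone; for Prpf (-0.022), to -0.056 in Cy5 alone and -0.046 both in Cy3 alone and with gene averages; and for Dhx (-0.046), to 0.044 in Cy3 alone. Leaving out 1 set gave medians of -0.18 to -0.12 for Sf3, -0.087 to -0.033 for Prpf and -0.050 to 0.034 for Dhx. Srsf1 reversed in Cy3 alone, at -0.040 (adjusted p = 0.928, limma). The cause of these moves was not tested. Scaling choices moved no median of all features by more than 0.1.

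In the ratios as deposited, before the sign was turned on Cy3 arrays, deviations of same-numbered arrays correlated at 0.256, 0.212 and 0.0999 over features. Read as treated over untreated these signs turn, so same-numbered arrays deviated in opposite directions, which partly cancels in a set mean. The set 3 Cy3 array correlated better with the set 2 Cy5 array (0.112, as deposited). The samples were therefore taken to share only a number. With the set number as a block, 8 members were called higher and 16 lower of 65 tested, as 38.8% of all features were called.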
